A study of Mus musculus with 12 samples.

Results

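The genes described here are those of oxidative phosphorylation in the mouse olfactory epithelium. They are all genes whose symbol in the probe annotation begins with Ndufa, Ndufb, Ndufc, Ndufs, Ndufv, Uqcr, Uqcc, Cox4 to Cox8 or Atp5, or is Sdha, Sdhb, Sdhc or Sdhd, each represented by its brightest probe. The rule gave 92 of 19937 measured genes: 43 of complex I, 4 of complex II, 11 of complex III, 17 of complex IV and 17 of complex V. It does not use any measured difference between time points. The RNA came from 48 male C57BL/6 mice, kept in a 12 h light and 12 h dark cycle and then in constant darkness, with no other genotype or treatment named and no age given in the sources used here. The epithelia of 4 mice were pooled at each circadian time (CT) from CT12 to CT56, every 4 h, which gave 12 pools and 12 arrays. CT12, the start of the subjective night, was sampled 24 h after the last lights-off. The 6 pools of the subjective night were taken at CT12, CT16, CT20, CT36, CT40 and CT44, and the 6 pools of the subjective day at CT24, CT28, CT32, CT48, CT52 and CT56. The pools up to CT32 form cycle 1 and those from CT36 form cycle 2, so that each phase of the day was sampled in 2 pools taken 24 h apart, and these stand as replicates. Each pool is an average over 4 mice, so the p-values measure the spread between pools and not between animals.

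Oxidative phosphorylation is carried out in the inner mitochondrial membrane. Complexes I and II pass electrons from NADH and from succinate to ubiquinone, complex III passes them on to cytochrome c, and complex IV to oxygen. Complexes I, III and IV pump protons as they do so, and complex V, the ATP synthase, uses the proton gradient to make ATP. Most subunits are encoded in the nucleus and a few, among them the catalytic centre of complex IV, in mitochondrial DNA. Core subunits carry the redox centres or catalytic sites, and accessory subunits surround and stabilise them. Assembly factors help to build a complex without staying in it. The classes used below follow this only in part. The core class also holds Uqcrc1, Uqcrc2, Atp5c1, Atp5d and Atp5e. The accessory class holds the ring genes Atp5g1, Atp5g2 and Atp5g3, and the assembly class Cox7a2l. Several subunits of complex IV have a second isoform made mainly in muscle, testis or other particular tissues. In neurons the ATP made in this way pays largely for ion pumping.

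The array measured the tissue named in the labels. The markers of mature olfactory sensory neurons Omp and Gnal had mean log2 intensities of 12.89 and 12.77, while the 75th percentile of the 12 arrays lay between 8.96 and 9.12. In bulk tissue, fewer cells of a type and less RNA per cell cannot be told apart. The column medians of the arrays lay between 7.81 and 7.92. Among the marker lists, that of the nasal glands varied most, with a mean deviation from each gene's own mean between -0.65 at CT48 and 1.11 at CT44. The 51 small nucleolar RNA genes on the array also differed between pools: their mean deviation from each gene's own mean was between -0.43 and -0.093 in cycle 1, -0.38 at CT36 and 0.90 at CT56. CT56 is given beside many of the results below, though not beside every gene that was highest in it. The part of that pool or of these small RNAs in the results was not tested.

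None of the 92 genes passed the test in any of the 3 comparisons at an adjusted p of 0.05 (limma, Benjamini-Hochberg adjustment over all 19937 genes). For a 24 h rhythm the smallest adjusted p among them was 0.996, and 0.0251% of all genes passed. At an unadjusted p under 0.05, 5 of the 92 genes had a 24 h rhythm, against 3.54% of all genes. For night against day the smallest adjusted p was 0.497, and 0% of all genes passed. At an unadjusted p under 0.05, 9 of the 92 genes were lower at night, against 5.69% of all genes, and 1, Cox6a2, was higher, against 4.17%. For cycle 2 against cycle 1 the smallest adjusted p was 0.304, and 0% of all genes passed. At an unadjusted p under 0.05, 16 of the 92 genes were higher in cycle 2, against 4.22% of all genes, and 5 were lower, against 8.94%. The clock genes were measured on the same arrays: Nr1d1, a repressor of the core clock, had a 24 h amplitude of 0.42 (adjusted p = 0.0017, limma) and Dbp, a clock output gene, one of 0.51 (adjusted p = 0.0017).

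**Figure D1:**
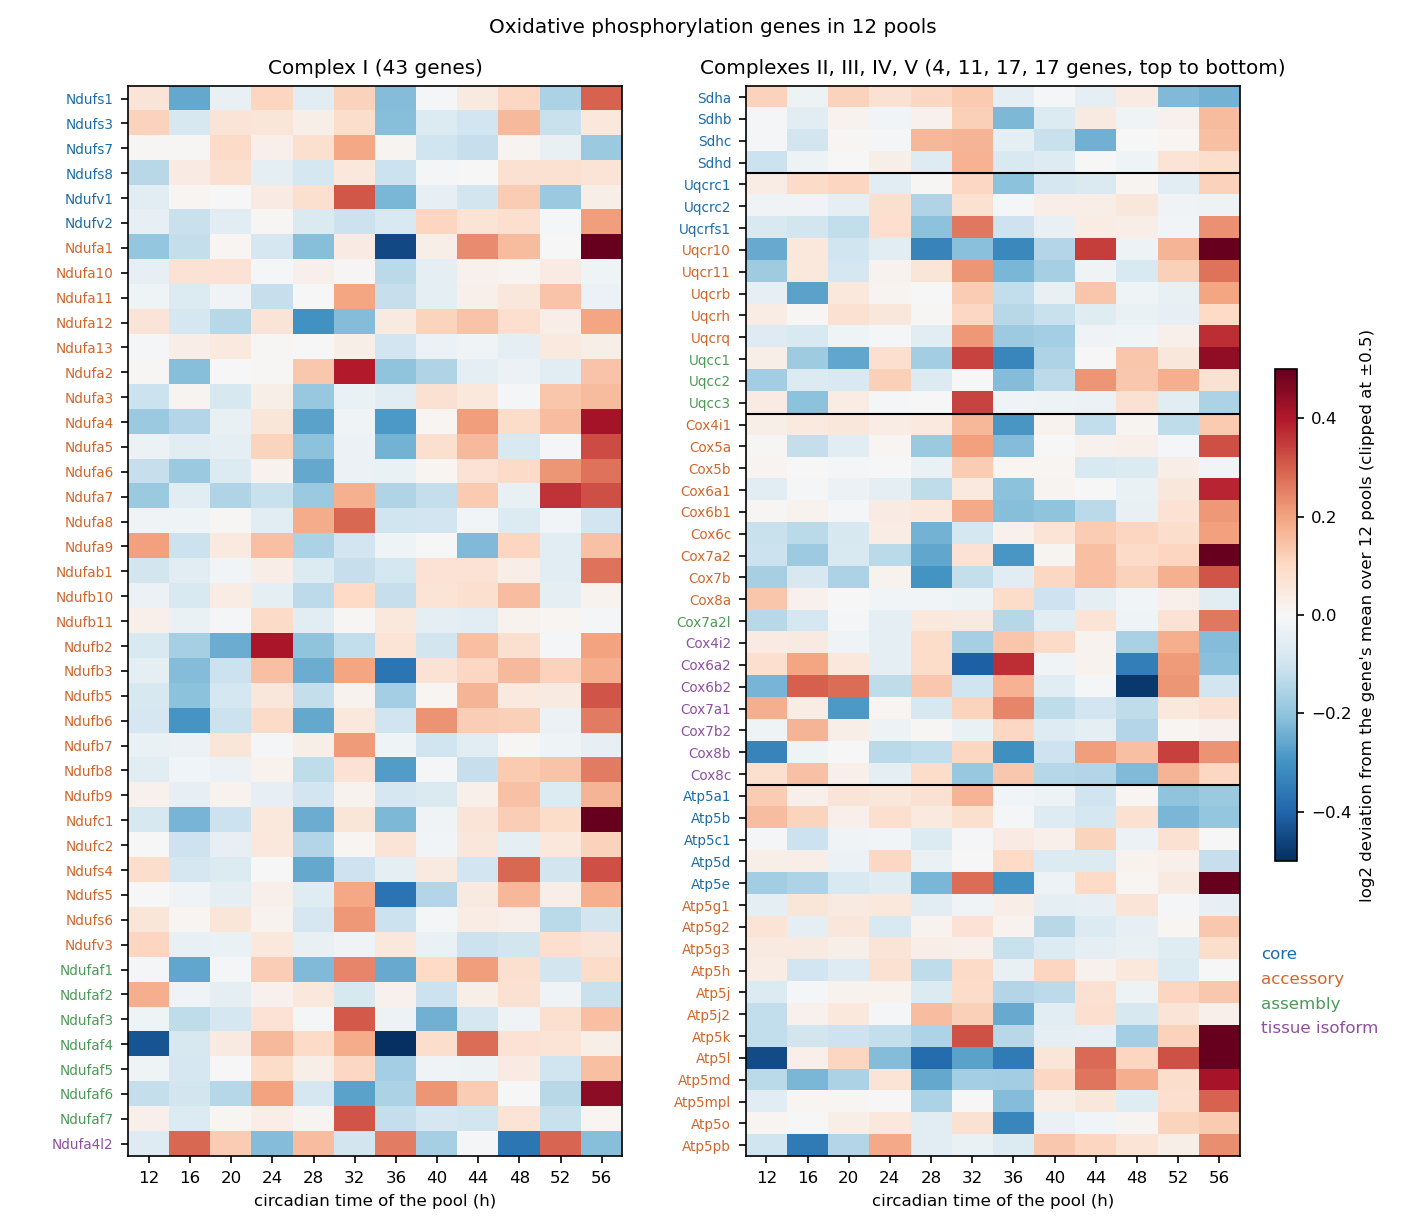
Each cell is the log2 deviation of 1 of the 92 genes (rows, by complex and coloured by class) from its own mean in 1 of the 12 pools (columns, circadian time in h). CT56 is the highest pool of 42 genes and CT36 the lowest pool of 34; none of the 8 isoforms made in particular tissues has either.

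Most of the genes were a little lower in the subjective night than in the subjective day, by less than the test could call. The difference, night minus day, was below 0 for 77 of 92 genes, against 51.5% of all genes. Its median over the 92 genes was -0.077 on the log2 scale, and -0.0044 over all genes. The fitted 24 h curve peaked in the subjective day for 69 of 92 genes, against 54.0% of all genes. The bright genes of these arrays mostly had that sign too: of the 9969 genes above the median level, 73.43% were lower at night, and of the 84 oxidative phosphorylation genes among them 75 were. Their medians were -0.050 and -0.084. After cyclic loess normalization, which removes shifts that depend on the level, 66 of 92 genes were lower at night with a median of -0.038, and 49.2% of all genes were. After quantile normalization these values were 67 of 92, -0.040 and 45.52%. Without the CT56 pool the median was -0.043, and without both CT32 and CT56 it was -0.028. The markers of multiciliated respiratory cells had the same sign and a larger median: 11 of 13 were lower at night, with a median of -0.15, and 5 had an unadjusted p under 0.05. Their mean deviation was 0.20 at CT32, 0.16 at CT56 and -0.10 at CT36, and their part in the result was not tested.

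The medians of the 5 complexes had the same sign, in these values and under every alternative run. The median of night minus day was -0.073 in complex I, where 39 of 43 genes were lower at night, and -0.094 in complex II, where 3 of 4 were. In complex III it was -0.13, and all 11 of its genes were lower at night. In complex IV it was -0.036 with 11 of 17 genes lower, and in complex V -0.054 with 13 of 17 lower. All 17 genes of complex V were above the median level, where the median of all genes was -0.050 and 73.43% were lower. Complex V was therefore close to other genes of such levels. Without CT32 and CT56 the medians were -0.032, -0.051, -0.037, -0.0082 and -0.014 for complexes I to V. Without CT56 alone that of complex V was -0.023. After cyclic loess normalization the medians were -0.028, -0.038, -0.084, -0.023 and -0.015, with 31 of 43, 3 of 4, 9 of 11, 12 of 17 and 11 of 17 genes lower, and after quantile normalization that of complex I was -0.027 with 33 of 43 lower.

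**Figure D2:**
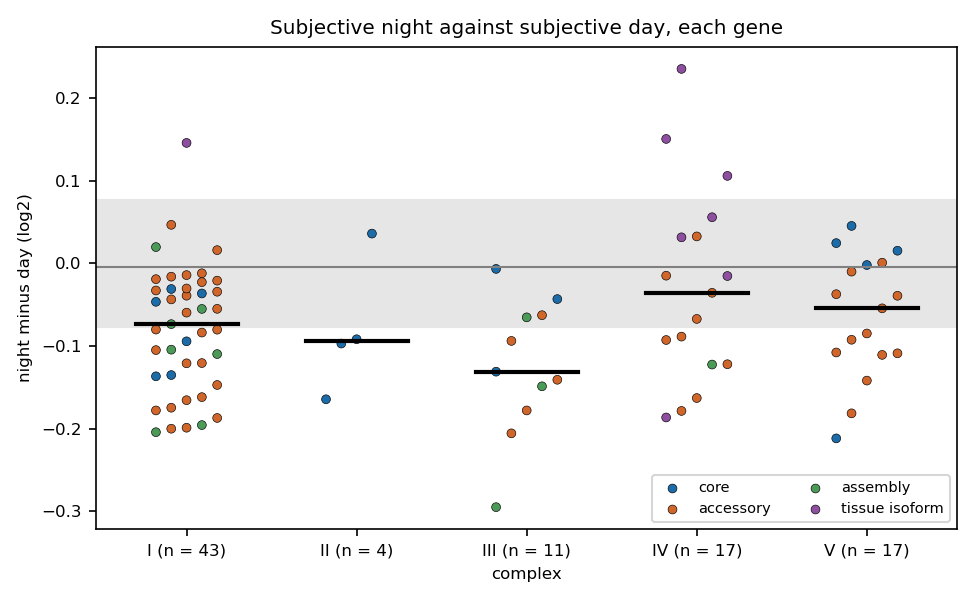
Each point is 1 gene's night minus day difference (log2, mean of 6 night pools minus mean of 6 day pools), by complex and coloured by class; black bars are medians, and the grey line and band are the median and the middle quartiles of all 19937 genes. The medians run from -0.13 in complex III to -0.036 in complex IV, and the 3 highest points of complex IV are isoforms made in particular tissues.

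The mean profiles show which pools carry these differences. In complex III the mean deviation was 0.14 at CT32 and 0.23 at CT56, the phase before the subjective dusk in each cycle, and -0.17 at CT36. In complex II it was 0.15 at CT32 and 0.040 at CT56, with -0.099 at CT36. Complex I had 0.067 and 0.14 at CT32 and CT56 and -0.12 at CT36, and complex V 0.049, 0.17 and -0.12. Complex IV had -0.0037 at CT32, 0.13 at CT56 and -0.025 at CT36. CT56 was therefore above 0 in all 5 complexes, and the highest pool in each except complex II, where CT32 was the highest. CT32 was above 0 in 4 of the 5 and just below 0 in complex IV. Of the 92 genes, 42 had their highest value at CT56, against 15.9% of all genes.

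**Figure D3:**
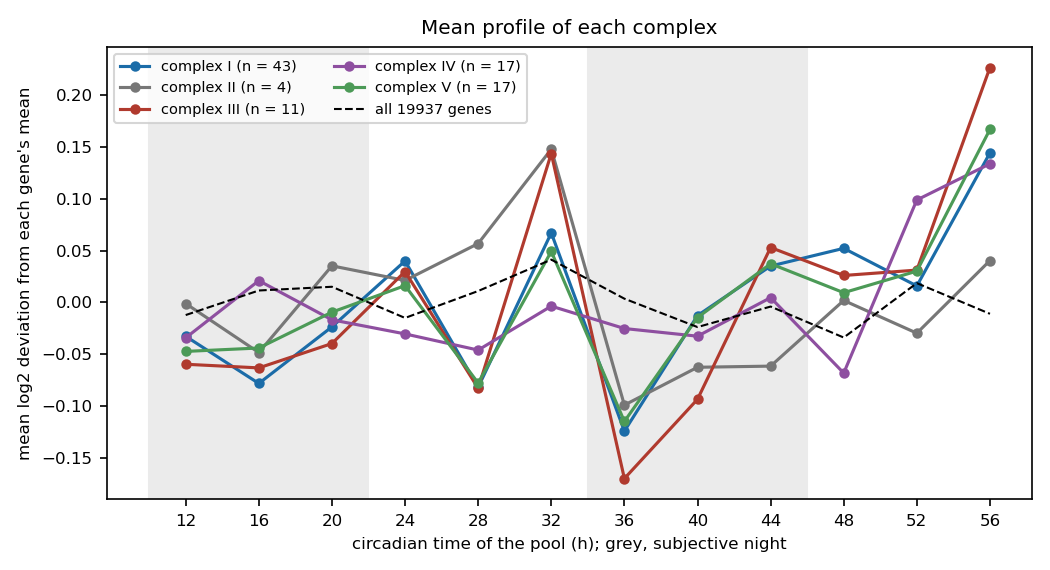
Mean log2 deviation of the genes of each complex from their own means (y axis) in each of the 12 pools (x axis, circadian time in h; grey, subjective night), with all genes as the dashed line. Complex III runs from -0.17 at CT36 to 0.23 at CT56, and all genes stay between -0.034 and 0.041.

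In complex I, the NADH dehydrogenase, the 6 core subunits measured were all lower at night, with differences between -0.14 and -0.031. Ndufs1, the large subunit with iron-sulfur clusters, had a lowest, median and highest log2 intensity of 9.45, 9.69 and 9.77 over the night pools and of 9.55, 9.82 and 10.004 over the day pools. Ndufv1, which binds NADH and the flavin, had 10.11, 10.29 and 10.34 at night and 10.15, 10.40 and 10.65 by day. The groups overlap in both genes, and the differences were -0.14 ± 0.080 (SE, 6 pools against 6) and -0.14 ± 0.074. Ndufs7 and Ndufs8, which carry clusters near the ubiquinone site, had differences of -0.031 and -0.047. Those of Ndufs3 and Ndufv2 were -0.094 and -0.036.

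Of the 29 accessory subunits of complex I, 27 were lower at night. Ndufa2 had the lowest difference: its night pools had 9.24, 9.35 and 9.45 as lowest, median and highest value and its day pools 9.40, 9.52 and 9.84, a difference of -0.20 ± 0.077 (SE; unadjusted p = 0.019, adjusted p = 0.497, limma). Its highest pool was CT32, at 9.84, and CT56 had 9.59. Ndufc1 differed by -0.20 ± 0.098, with day pools from 9.67 to 10.43, the highest of them CT56. Ndufa1, a small subunit needed for assembly, had the widest range of the complex, 1.04, from 9.10 at CT36 to 10.14 at CT56. Ndufa13, by contrast, stayed within 0.14 over all 12 pools, between 9.78 and 9.93. Ndufb11 stayed within 0.15, although its other probe, dimmer and with a range of 0.28, followed it with a Pearson r of only 0.13 over the 12 pools.

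The assembly factors of complex I include the only gene of the 92 whose night and day pools did not overlap. Ndufaf3 had log2 intensities of 10.23, 10.12, 10.16, 10.22, 10.01 and 10.16 in the night pools CT12, CT16, CT20, CT36, CT40 and CT44. In the day pools CT24, CT28, CT32, CT48, CT52 and CT56 it had 10.32, 10.24, 10.56, 10.23, 10.33 and 10.40. Every night pool was below every day pool, narrowly between CT12 and CT48, as it was for 0.176% of all genes. The difference was -0.20 ± 0.064 (SE; unadjusted p = 0.0079, adjusted p = 0.497, limma), and the fitted 24 h amplitude was 0.15 ± 0.044 (SE), highest at CT 5.99 (unadjusted p = 0.011, adjusted p = 0.996).

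Ndufaf4, which works with Ndufaf3 in early assembly of complex I, had the largest 24 h amplitude of the 92 genes, 0.22, and its fitted curve was highest at CT 0.13 (unadjusted p = 0.024, adjusted p = 0.996, limma). Its 2 lowest pools were of the same phase, 8.30 at CT12 and 8.22 at CT36, and all the other pools lay between 8.65 and 9.01. Its night and day pools overlap, and its night minus day difference was -0.20 ± 0.11. Of the 7 assembly factors of complex I, 6 were lower at night.

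Complex II, the succinate dehydrogenase, is the only complex with no subunit encoded in mitochondrial DNA, and 3 of its 4 genes were lower at night. Sdhc, a membrane anchor, had night values of 10.43, 10.61 and 10.68 as lowest, median and highest and day values of 10.67, 10.76 and 10.84. The groups overlap only through the night pool CT20, which lay above the day pools CT24 and CT48, and the difference was -0.16 ± 0.060 (SE; unadjusted p = 0.015, adjusted p = 0.497, limma). The fitted 24 h curve of Sdhc was highest at CT 6.15, with an amplitude of 0.13 (unadjusted p = 0.016, adjusted p = 0.996). Sdhb, the iron-sulfur subunit, and Sdhd, the other anchor, had differences of -0.097 ± 0.059 and -0.092 ± 0.054.

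Sdha, the flavoprotein that oxidises succinate, had a difference of 0.036 ± 0.074 between night and day, less than its error. With a linear term of time this was -0.049, and all 4 genes were then lower at night. Sdha differed more between the cycles. Its log2 intensities from CT12 to CT32 were 11.51, 11.37, 11.52, 11.47, 11.50 and 11.53, and from CT36 to CT56 11.35, 11.39, 11.35, 11.44, 11.18 and 11.16. The pools CT52 and CT56 were the lowest, and the cycles overlap only through CT16. Cycle 2 minus cycle 1 was -0.17 ± 0.063 (SE, 6 phase pairs; unadjusted p = 0.019, adjusted p = 0.315, limma), lower in cycle 2 in 5 of 6 pairs.

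In complex III, the cytochrome bc1 complex, the lowest difference of all 92 genes was that of Uqcc1, an assembly factor needed for the synthesis of cytochrome b. Uqcc1 had 8.60, 8.40, 8.32, 8.25, 8.42 and 8.58 in the night pools in time order and 8.66, 8.40, 8.91, 8.71, 8.63 and 9.02 in the day pools. All day pools but CT28 were above all night pools. The difference was -0.29 ± 0.095 (SE; unadjusted p = 0.0068, adjusted p = 0.497, limma). Uqcc2, which acts with Uqcc1, differed by -0.15 ± 0.073, and Uqcc3 by -0.065 ± 0.076. The other, dimmer probe of Uqcc2 differed by only -0.031 and had a Pearson r of 0.56 with the one used. The 24 h curve of Uqcc2 had its maximum at CT 0.96 and an amplitude of 0.14 (unadjusted p = 0.029, adjusted p = 0.996).

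Among the accessory subunits of complex III, Uqcr11 differed by -0.21 ± 0.070 between night and day (unadjusted p = 0.0098, adjusted p = 0.497, limma). Its other probe, of nearly the same brightness, differed by -0.011, so the value rests on 1 of 2 probes. Uqcrq had 10.10, 10.21 and 10.27 at night and 10.23, 10.29 and 10.66 by day, a difference of -0.18 ± 0.074, and its 2 highest pools were CT32 and CT56. Uqcr10 ranged from 9.33 at CT28 to 10.54 at CT56, a 2.31-fold range, with night values up to 10.01. Its night minus day difference of -0.14 ± 0.17 was smaller than its error. The core subunits Uqcrc1 and Uqcrc2 differed by -0.043 and -0.0067 and both had the opposite sign after cyclic loess or quantile normalization. Uqcrfs1, the Rieske iron-sulfur protein, differed by -0.13 ± 0.073.

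Complex IV, cytochrome c oxidase, held both directions. The 9 accessory subunits of the general kind had a median night minus day difference of -0.089, with 8 of 9 lower at night. Their mean deviation was 0.23 at CT56 and 0.064 at CT32, the next highest pool. Cox6b1 had 10.86, 10.998 and 11.09 in the night pools and 11.03, 11.13 and 11.29 in the day pools, a difference of -0.18 ± 0.064 (SE; unadjusted p = 0.013, adjusted p = 0.497, limma). The groups overlap through CT12, CT16, CT20 and CT48. Cox7a2 and Cox6a1 differed by -0.16 ± 0.12 and -0.093 ± 0.077, and Cox4i1, the largest nuclear-encoded subunit, by -0.089 ± 0.071. Cox8a, with a range of 0.24, differed by 0.033 ± 0.053. Cox5b had the narrowest range of the complex, 0.20.

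The 7 isoforms of complex IV made in particular tissues had a median night minus day difference of 0.056, with 5 of 7 higher at night. Over all genes, 9669 of 19937 were higher at night, but this share is not matched for level. Of the genes above the median level 73.43% were lower at night, so most of those below it were higher. Most of these isoforms lay below the median level of all genes: with Ndufa4l2 counted, 3 of 8 were above it. Of these 3, 2 were lower at night, with a median of -0.015. Cox6a2, the isoform of heart and skeletal muscle, had 8.61, 8.73, 8.58, 8.90, 8.51 and 8.54 in the night pools in time order. In the day pools it had 8.48, 8.62, 8.12, 8.18, 8.74 and 8.32, also in time order. The lowest value was that of CT32 and the highest that of CT36, and the groups overlap. The difference was 0.24 ± 0.10 (SE; unadjusted p = 0.036, adjusted p = 0.497, limma), the highest of the 92 genes. Cox6b2, the testis isoform, differed by 0.15 ± 0.11, and Cox4i2, an isoform known from lung, by 0.11 ± 0.070.

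Of the other isoforms, Cox8b and Cox7a1 were lower at night. Cox8b, another muscle isoform, differed by -0.19 ± 0.10, with 11.52 at CT12 as its lowest value and 12.19 at CT52 as its highest. Cox7a1, the muscle isoform of Cox7a2, differed by -0.015 ± 0.084. Cox7a1 had the smallest unadjusted p of the 92 genes for a 24 h rhythm, 0.011 (adjusted p = 0.996, limma), with an amplitude of 0.16 and a fitted maximum at CT 9.70, shortly before the subjective dusk. Its values at CT12 and CT36 were 8.68 and 8.74, and those at CT20 and CT44 8.21 and 8.40. Cox8c and Cox7b2 were higher at night, by 0.031 and 0.056, less than their errors. Ndufa4l2, an isoform related to Ndufa4, differed by 0.15 ± 0.11, while Ndufa4 itself, now known as a subunit of complex IV, differed by -0.15 ± 0.10. By their symbols both were counted in complex I throughout.

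The markers of skeletal muscle and of brown fat mostly had the same sign as most of these isoforms. All 14 of 14 muscle markers measured, among them Ckm (0.17) and Acta1 (0.075), were higher at night, with a median difference of 0.14 (0.078 after cyclic loess normalization, with 1 of 14 lower). Over all genes, 9669 of 19937 were higher at night. The muscle list was dim, with a median level of 7.05 against 8.18 over all genes. Most genes below the median level were higher at night, since 73.43% of those above it were lower. Only 3 of the 14 were above the median level. The mean deviation of the muscle list was between -0.015 and 0.24 in the night pools and between -0.25 and 0.15 in the day pools. It was 0.24 at CT36, -0.11 at CT32 and -0.25 at CT56, where the 8 isoforms including Ndufa4l2 had 0.14, -0.097 and -0.039. The smallest unadjusted p of the muscle list was 0.040, for Actn3. Of the 6 brown fat markers 5 were higher at night, with a median of 0.16, among them Fabp3 (0.29), Elovl3 (0.21) and Ucp1 (0.14), while Cidea had -0.18. Their mean deviation was 0.20 at CT36, -0.014 at CT32 and -0.17 at CT56. The part of muscle or fat RNA in the isoform values was not tested.

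In complex V, the ATP synthase, 4 of the 5 core subunits differed by less than their errors between night and day. Atp5b, the catalytic beta subunit, differed by 0.045 ± 0.072 and Atp5a1, the alpha subunit, by 0.024 ± 0.070, and both changed sign when a linear term of time was fitted or the arrays were weighted. Atp5d, the delta subunit of the central stalk, differed by -0.0020 ± 0.055 and Atp5c1, the gamma subunit, by 0.015 ± 0.052. Atp5e, the small epsilon subunit, differed by -0.21 ± 0.11, with 9.33 at CT32, 9.64 at CT56 and values of at most 9.15 in the other pools. Of the 12 accessory subunits, which include the membrane ring and the peripheral stalk, 11 were lower at night, with a median of -0.089. Their mean deviation was 0.23 at CT56 and 0.067 at CT52, the next highest pool. Atp5k had 8.70, 8.74 and 8.80 at night and 8.67, 8.84 and 9.39 by day, and here too CT32 (9.16) and CT56 (9.39) stood above the other pools.

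The 3 genes of the ring subunit c, Atp5g1, Atp5g2 and Atp5g3, encode the same mature protein. Their night minus day differences were 0.00080, -0.039 and -0.037, and their ranges over 12 pools were 0.12, 0.28 and 0.20. Atp5g1 had the narrowest range of the 92 genes, from 10.89 to 11.01. Its dimmer probe had a range of 0.80 and a Pearson r of 0.036 with the brighter one, so the narrow range holds for the brightest probe only.

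Between the cycles, subunits such as Atp5b and Atp5l of the same complex differed in opposite directions. The classes were assigned after the values had been seen, and their medians were not tested. The median of cycle 2 minus cycle 1 was -0.032 over the 18 core subunits, of which 7 were higher in cycle 2, and 0.046 over the 55 accessory subunits, of which 34 were higher. The accessory median was 0.027 without CT32 or CT56, 0.028 without CT28 or CT52 and 0.078 without CT12 or CT36, and after cyclic loess normalization it was 0.079 and the core median -0.0083. The median was -0.026 over all genes, of which 38.3% were higher, and 0.0095 over the 92 genes, of which 51 were. Without CT28 or without CT52 that last median was -0.0056. By complex the medians were 0.034, -0.054, 0.025, 0.0090 and 0.0056 for I to V, and the order of sizes is loose: complex V had -0.0097 after quantile normalization and -0.024 without CT28 or CT52, and complex IV -0.013 without either of those pools.

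Atp5b had log2 intensities of 12.74, 12.70, 12.61, 12.67, 12.63 and 12.67 from CT12 to CT32 and of 12.58, 12.52, 12.50, 12.66, 12.36 and 12.39 from CT36 to CT56. Each of the 6 phases had the lower value in cycle 2, by 0.0084 or more, and the difference was -0.17 ± 0.055 (SE, 6 phase pairs; unadjusted p = 0.010, adjusted p = 0.304, limma). Atp5a1, which forms the catalytic head with Atp5b, had a difference of -0.17 ± 0.058, also lower in 6 of 6 pairs. Its cycle 1 pools lay between 11.97 and 12.12 and its cycle 2 pools between 11.75 and 11.96, with no overlap. The share of all genes without overlap between the cycles was not counted. Cox4i1 (-0.13), Ndufa8 (-0.13) and Uqcrh (-0.095) were also lower in 6 of 6 pairs. These 5 genes compare with 6.10% of all genes lower in 6 of 6 pairs. Ndufs7 (-0.14) and Ndufv1 (-0.13) were lower in 5 of 6.

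Atp5l, the small subunit g of the membrane part, had 10.28, 10.75, 10.83, 10.51, 10.34 and 10.46 in cycle 1 and 10.37, 10.79, 11.01, 10.83, 11.05 and 11.50 in cycle 2. Each phase was higher in cycle 2, by 0.10, 0.037, 0.18, 0.33, 0.71 and 1.04 in time order. The difference was 0.40 ± 0.12 (SE; unadjusted p = 0.0058, adjusted p = 0.304, limma), the highest of the 92 genes. Its other 4 probes differed by 0.088 to 0.53 between the cycles, all in the same direction.

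Cox7b, Cox6c and Ndufa6 were also higher in 6 of 6 pairs, by 0.27 ± 0.065, 0.21 ± 0.054 and 0.21 ± 0.063. With Atp5l these are 4 genes, against 1.58% of all genes. Cox7b had the smallest unadjusted p of the cycle comparison, 0.0014 (adjusted p = 0.304, limma), and all its cycle 2 pools but CT36 were above all its cycle 1 pools. Atp5md and Uqcr10 differed by 0.29 ± 0.077 and 0.30 ± 0.14, Cox7a2 by 0.23 ± 0.080 and Ndufa12 by 0.21 ± 0.067. The largest pair was that of CT32 and CT56 for Uqcr10 (1.08), Atp5md (0.58), Cox7a2 (0.54) and Ndufa12 (0.41). Of the genes encoded in mitochondrial DNA, 2 were measured here. These, COX2 of complex IV and ND3 of complex I, differed by 0.22 and 0.17 (unadjusted p = 0.0052 and 0.011, neither past the adjusted threshold).

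**Figure D4:**
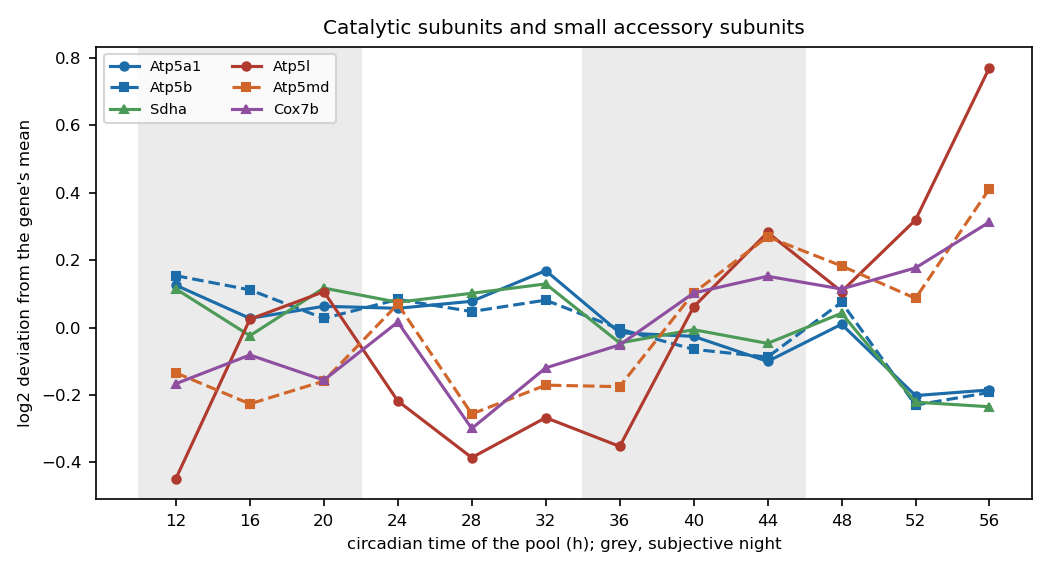
Log2 deviation of 6 genes from their own means (y axis) in the 12 pools (x axis, circadian time in h; grey, subjective night). The catalytic subunits Atp5a1, Atp5b and Sdha are lowest at CT52 and CT56, while Atp5l, Atp5md and Cox7b are highest at CT56; at CT52 Atp5md, at 12.04 against 12.37 at CT56, is near the middle of its range, and Atp5l spans 1.22.

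Of the small nucleolar RNA genes, 49 of 51 were higher in cycle 2, with a median of 0.42. Over the 12 pools their mean had a Pearson r of 0.94 with Atp5l, 0.93 with Cox7b, 0.88 with Ndufa6 and 0.83 with Cox6c. Among the genes lower in 6 of 6 pairs, r was -0.83 for Atp5a1, -0.79 for Atp5b and -0.36 for Ndufa8. For Uqcrh and Cox4i1 it was 0.090 and 0.10. The genes of cytosolic ribosomal proteins had a median of 0.031 with 33 of 56 higher. In the other direction, 9 of 10 markers of mature olfactory sensory neurons were lower in cycle 2 with a median of -0.17, as were 8 of 9 of immature neurons (median -0.17) and 12 of 14 glycolytic enzymes (median -0.15). The mean deviation of the mature neuron list was between -0.020 and 0.15 in cycle 1 and between -0.17 and 0.017 in cycle 2. The part of neuron RNA or of small RNAs in the differences between cycles was not tested.

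**Figure D5:**
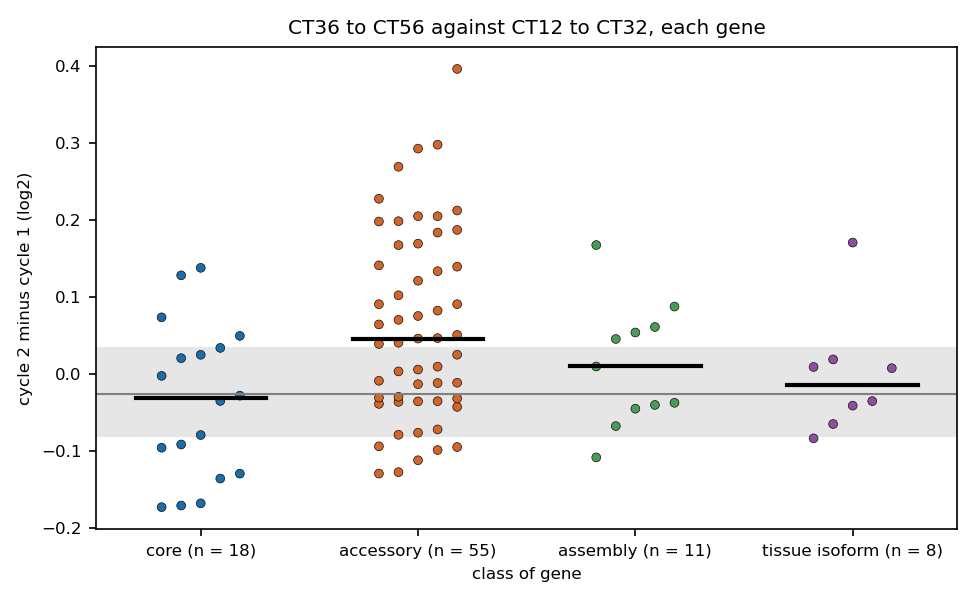
Each point is 1 gene's cycle 2 minus cycle 1 difference (log2, mean over 6 phase pairs), by class of gene; black bars are medians, and the grey line and band are the median and middle quartiles of all 19937 genes. The core subunits have a median of -0.032 and the accessory subunits one of 0.046, with Atp5l at 0.40 on top.

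The genes of 1 complex followed each other only loosely over the pools. The mean Pearson r between pairs of genes over 12 pools was 0.19 for the 92 genes (0.16 without CT56) and 0.029 for all genes. It was 0.24 within complex I, 0.23 within complex II, 0.42 within complex III, 0.091 within complex IV and 0.11 within complex V. Between complexes it ran from 0.056 for complexes II and IV to 0.34 for complexes II and III. By class it was 0.32 among accessory subunits, 0.17 among core subunits, 0.37 among the 8 isoforms, and -0.21 between isoforms and core subunits. These values share the arrays and are given as a description. Atp5e followed the mean of its complex most closely (r = 0.95), and Ndufa4l2, counted in complex I by its symbol, least (r = -0.73).

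Outside the pathway, the 5 genes whose profile was most like the mean of the 81 subunits without assembly factors were Smim27, Thnsl1, Gpx4, Ube2w and Commd6, with Pearson r from 0.95 to 0.97 over 12 pools. All 5 had CT56 as their highest pool. Gpx4, for example, had 11.91 at CT56 and between 11.19 and 11.51 elsewhere. The 5 most opposed were Evc, Akap5, Gm10687, Egfl8 and Prr23a3, with r from -0.94 to -0.93.

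Other genes of mitochondrial energy metabolism mostly had small differences of the same sign. None of the lists held a gene that passed the test of night against day. For comparison, 51.5% of all genes were lower at night. Among genes above the median level 73.43% were, with a median of -0.050. Of 36 assembly factors outside the rule, 28 were lower at night, with a median of -0.082. Of 13 enzymes of the tricarboxylic acid cycle 9 were lower, with a median of -0.036, close to the share of genes above the median level. Of 15 regulators of mitochondrial biogenesis 11 were lower, with a median of -0.10, and this count too is close to that share. At an unadjusted p under 0.05 (limma), 5 of the 15 were lower at night, against 5.69% of all genes. Among these Tfb1m, a mitochondrial rRNA methyltransferase, differed by -0.31, Ppargc1a, the coactivator PGC-1alpha, by -0.26, Tfam, which packages mitochondrial DNA, by -0.25, Gabpb1 by -0.21 and Nrf1 by -0.17, with unadjusted p between 0.014 and 0.038 and adjusted p of 0.497 (limma). Of 9 further subunits and carriers, which count Atp5md again under a list of older names, 8 were lower. Cyc1, the haem subunit of complex III, differed by -0.16, and Cycs, cytochrome c, by -0.072.

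Nrf1 and the ETS factor GABP, with its subunits Gabpa and Gabpb1, are known as activators of nuclear genes of the respiratory chain, so their motifs were looked for in the promoters. RefSeq promoter windows of GRCm38.p6, from 250 bases before to 50 bases after the start, matched 76 of the 92 genes, with 81 windows. The Nrf1 motif GCATGCGC was present, on either strand, in 14.8% of the 81 windows and in 2.71% of all 32851 windows. The ETS motif CCGGAAG was present in 22.2% and 8.86%, and the YY1 motif AAGATGGC in 13.6% and 2.75%. The E-box CACGTG, the motif of the clock proteins CLOCK and BMAL1, was present in 9.88% and 7.15%. The 4 windows of isoforms made in particular tissues held 0 of these 4 motifs. A match of letters is a description and does not show binding.

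Atp5l and Cox6a1 were the only genes with 1 promoter window whose bases before the start held both the Nrf1 and the ETS motif, and these stretches are shown for that reason, 5′ to 3′ on the strand of the gene. Over the whole windows, with the bases after the start, Atp5k, Sdhb and Uqcr11 also held both motifs. Capitals mark the matches. Atp5l and Cox6a1 lie on the minus strand, and in Cox6a1 the Nrf1 motif is found on both strands in overlap. The stretch of Atp5l is chr9:44920936-44920992 and that of Cox6a1 chr5:115348959-115349132 (GRCm38.p6).
Atp5l: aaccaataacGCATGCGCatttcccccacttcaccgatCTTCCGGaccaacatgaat
Cox6a1: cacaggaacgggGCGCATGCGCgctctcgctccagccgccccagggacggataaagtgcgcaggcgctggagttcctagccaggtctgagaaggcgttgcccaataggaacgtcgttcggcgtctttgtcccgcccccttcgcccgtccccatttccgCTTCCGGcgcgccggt
Both genes had their highest value at CT56, 11.50 for Atp5l and 11.84 for Cox6a1, but their night minus day differences, -0.11 ± 0.17 and -0.093 ± 0.077, were of the size of their errors.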

How the data were processed

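The deposited values are log2 intensities, 1 per probe and pool, read as such from their range of 3.48 to 14.47. Per the labels' protocols, Trizol was used for the RNA, a random-primed kit covering whole transcripts for its amplification, and biotin as the label on Affymetrix arrays. The tool affy is named in the submitters' processing notes, without version or role. How background was corrected and arrays normalized is a step not stated in the labels. Probes with 1 gene symbol (21640 of 34760) gave 19937 genes, each by its brightest probe; 18 of the 92 genes had several probes. Another 6 probes that match the rule in part carry several symbols and were left out. Levels of different probes were not compared.

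With limma 3.58.1 in R 4.3.3, 3 models were fitted to all genes: a cosine and sine of 24 h (moderated F test), night against day, and cycle with phase as a factor. Benjamini-Hochberg adjustment covered all genes, with a threshold of 0.05. The models were tested on simulated data. Lists are described by counts and medians. The genes, lists and named genes were chosen with earlier results of these data known; the named genes are all Sdh genes, isoform families, core subunits, and per complex the extremes of each comparison and of range. Core, accessory, isoform and assembly classes were assigned after values had been seen. Alternatives were 3 normalizations, 2 filters on dim genes, probe means, array weights, a trended prior, a linear term of time, leaving out CT32 with CT56, and leaving out each pool. Pools carry no shared replicate labels besides phase. The number of arrays limits the precision. Promoters were searched in Python 3.11.15 (pandas 2.3.3), and figures drawn with matplotlib 3.10.9.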

Additional observations from a re-analysis of the deposited data

Results flagged for a closer look

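One pool stood apart from the other 5 of its group in 19 of 248 groups screened, where chance gives about 12.4. The measure is the ratio of the gap to the nearest pool to the range of the group (Dixon's test), and each gene is given with the log2 intensity of that pool and of its nearest neighbour. CT32 stood above the other pools of cycle 1 for 7 genes, namely Atp5e (9.33 against 8.99, ratio 0.6651), Atp5k (9.16 against 8.75, ratio 0.8659), Cox4i1 (10.85 against 10.74, ratio 0.8032), Cox5b (12.55 against 12.44, ratio 0.705), Cox6b1 (11.26 against 11.12, ratio 0.701), Ndufv1 (10.65 against 10.42, ratio 0.6335) and Uqcrq (10.50 against 10.28, ratio 0.765). CT56 stood highest for Atp5g3 among the cycle 2 pools (11.57 against 11.45, ratio 0.6353), Cox6a1 among the day pools (11.84 against 11.51, ratio 0.64) and Uqcrq among the cycle 2 pools (10.66 against 10.31, ratio 0.6299). Other pools stood highest for Atp5md at CT24 among the cycle 1 pools (12.02 against 11.82, ratio 0.6255), Cox7b2 at CT16 among the cycle 1 pools (5.89 against 5.75, ratio 0.6958), Cox8a at CT12 among the cycle 1 pools (11.87 against 11.75, ratio 0.7019) and Uqcc2 at CT44 among the night pools (10.26 against 9.97, ratio 0.6551). The lowest pool stood apart for Cox5b at CT44 among the night pools (12.35 against 12.42, ratio 0.7968), Cox6a1 at CT36 among the night pools (11.25 against 11.41, ratio 0.6946), Cox7b2 at CT48 among the day pools (5.57 against 5.69, ratio 0.6827), Ndufaf4 at CT36 among the cycle 2 pools (8.22 against 8.76, ratio 0.684) and Sdha at CT16 among the cycle 1 pools (11.37 against 11.47, ratio 0.6468).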

How the results depend on the processing

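No member gene was called under any alternative. Over all genes, 3 to 5 had a 24 h rhythm when 1 pool was left out. The cycle comparison called 0 genes, but 17 with array weights, 1 with the 25th percentile filter, 1 with the trended prior, and 0 to 18 without 1 pool, 18 without CT12 or CT36; at an unadjusted p under 0.05, limma gave 842 higher and 1783 lower. The night minus day median of complex II was -0.0385 after cyclic loess and -0.04 after quantile normalization, that of complex III -0.0365 without CT32 and CT56, and that of complex IV -0.0886 above the 50th percentile and -0.0864 to -0.0112 without 1 pool. The cycle median of all members was -0.0056 to 0.0284 without 1 pool. Genes whose night minus day difference changed sign were as follows. With array weights the difference was -0.0012 for Atp5a1, -0.010 for Atp5b, -0.024 for Atp5g1, 0.025 for Atp5g2, 0.068 for Atp5l, 0.0026 for Ndufa13, 0.0073 for Ndufs8 and 0.034 for Uqcrc1. After cyclic loess the difference was -0.0006 for Cox8c, 0.035 for Ndufa13, 0.0018 for Ndufv2, 0.0075 for Uqcrc1 and 0.018 for Uqcrc2. Without CT32 and CT56 the difference was -0.014 for Atp5g1, 0.0028 for Atp5g2, 0.0093 for Cox5b, 0.028 for Cox7a1, 0.0007 for Uqcrc1 and 0.0043 for Uqcrc2. With a linear term of time the difference was -0.062 for Atp5a1, -0.045 for Atp5b, -0.0089 for Atp5g1, 0.12 for Atp5l, 0.039 for Atp5md, 0.065 for Cox7b, 0.0013 for Ndufa6, 0.027 for Ndufv2, -0.049 for Sdha, 0.038 for Uqcr10 and 0.0029 for Uqcrc2. With the mean of all probes the difference was -0.022 for Atp5g1 and 0.0020 for Atp5l. After median centring the difference was -0.021 for Atp5g1. After quantile normalization the difference was 0.012 for Cox7a1, 0.035 for Ndufa13, 0.0008 for Ndufs8, 0.0025 for Uqcrc1 and 0.0082 for Uqcrc2. Without 1 pool it lay between -0.013 and 0.061 for Atp5a1, -0.011 and 0.014 for Atp5g1, -0.20 and 0.035 for Atp5l, -0.030 and 0.0087 for Cox5b, -0.066 and 0.041 for Cox7a1, -0.0097 and 0.069 for Cox8c, -0.071 and 0.0047 for Ndufs7, -0.061 and 0.0018 for Ndufv2, -0.0074 and 0.066 for Sdha, -0.22 and 0.020 for Uqcr10 and -0.037 and 0.0084 for Uqcrc2. The cause of these changes was not tested. The cycle comparison is paired by phase in its main form, with 1 pool per phase and cycle.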
